A study of Mus musculus with 12 samples.

Results

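The genes examined were 32 mouse cell cycle genes: the D cyclins and their kinases (Ccnd1, Ccnd2, Ccnd3, Cdk4, Cdk6), inhibitors of cyclin-dependent kinases (Cdkn1a, Cdkn1b, Cdkn2a, Cdkn2c, Cdkn2d), Rb1 with E2f1, E2f2 and E2f3, the E and A cyclins with Cdk2 (Ccne1, Ccne2, Ccna2), replication factors (Mcm2 to Mcm7, Pcna), and mitotic and proliferation genes (Ccnb1, Ccnb2, Cdk1, Plk1, Aurkb, Top2a, Mki67). They were chosen by name as cell cycle genes, with earlier results of these data known. For each gene, open chromatin was read over the gene body with 20 kb on each side, on the mouse build GRCm38. Peaks of all libraries that overlapped by at least 1 bp were merged into regions. The 32 windows held 275 of 110642 regions, and 21631 protein-coding genes were annotated in all.

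The assay was ATAC-seq, which reads accessible DNA as the places where a transposase can insert sequencing adapters, on CD4+ T cells from mouse spleen. Naive cells were isolated by negative selection and were either used at once or cultured for 6 days on plates coated with anti-CD3. The Th1 cultures received IL-12 (10 ng/mL), IL-2 (1 ng/mL) and anti-CD28, and the Th2 cultures IL-4 (50 ng/mL), an antibody against IFN-gamma and anti-CD28. Cells came from C57BL/6J mice, here called wild type, or from the strain C57BL/6J-Ets1-SE-KO, here called knockout, whose name marks a deletion of a super-enhancer of Ets1; ages are not given. This gives 6 groups of 2 libraries. The 2 naive libraries of each genotype were technical replicates of 1 biological sample, whereas each cultured group held 2 biological replicates, going by the titles. The 2 Th2 knockout libraries carry titles that say Th1 and a source name that says Th2 cells, and they were used as Th2. Cultured cells differ from naive cells by stimulation, by cytokines and by days in culture at once, and these cannot be told apart.

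Cells enter the cycle when D cyclins activate Cdk4 and Cdk6, which phosphorylate the Rb protein and so release E2F factors to switch on genes of DNA replication. Cyclins E and A with Cdk2 carry the cell into and through S phase, cyclin B with Cdk1 drives mitosis, and the Cdkn1 and Cdkn2 proteins hold these kinases back. Naive T cells rest outside the cycle, with p27 (Cdkn1b) among their known brakes, and divide many times after stimulation through the T cell receptor and CD28.

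The deposited files were peak lists without read counts, so the depth of each library is unknown and where no peak is listed, none passed the authors' calling and no more is known. The lists held 34746 to 56357 peaks on chromosomes 1 to 19 and X, with naive knockout lists (41075 and 43823) shorter than naive wild-type lists (52571 and 56195). The 500 kb on each side of Ets1 were searched in these same lists. A 30.6 kb stretch found there, at chr9:32897838-32928447, contained 32 peaks in the 6 wild-type libraries together and 0 in the 6 knockout libraries. Because the stretch was located from these peaks, the 0 is not an independent check of genotype. Of the T cell genes checked, 8 of 8 had a peak in every library. Il5 had a peak in all 4 Th2 libraries and in none of the Th1 and naive libraries, and Ifng had a peak in all 4 Th1 and all 4 naive libraries and in none of the Th2 libraries. At these genes the 2 libraries with conflicting labels had the Th2 pattern. They were the 2 of 8 Th1 and Th2 genes checked at which presence of a peak separated all Th1 from all Th2 libraries. Of the others, Tbx21 had a peak in 3 of 4 Th1 libraries and in Th2 knockout replicate 1, Il4 in 3 of 4 Th1 and all 4 Th2 libraries, Il13 in Th2 knockout replicate 1 alone and Cxcr3 in 1 Th2 wild-type and no Th1 library, and Gata3 and Il12rb2 had one in every library. Of 9 B cell genes, the naive wild-type libraries had a peak at 4 and 4, the naive knockout ones at 9 and 8, and the cultured ones at 3 to 4. Red cell genes with a peak numbered 5 and 6 of 9 in the naive wild type, 7 and 7 in the naive knockout and 3 to 5 in cultured libraries. Of 9 myeloid genes, 3 and 3 had a peak in the naive wild type, 4 and 5 in the naive knockout and 3 to 4 in cultured libraries. Peaks at the myeloid genes numbered 11 and 11 in the naive wild type and 8 and 8 in the naive knockout. Of 6 CD8 and NK genes, 3 to 4 had a peak in naive and 0 to 3 in cultured libraries. The part of other cells in the calls below was not tested.

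Promoters are shown first, because they were the most constant sites of these genes. RefSeq start sites were at hand for 25 of the 32 genes, with 32 start sites in all, and the 250 bases before each were searched on both strands for 4 motifs. These were E2F sites (TTTCGCGC, TTTGGCGC, TTTCCCGC or TTTGCCGC), the CHR element of late cell cycle genes (TTTGAA), the CCAAT box (CCAAT) and the core ETS site (CCGGAAG). The sequences below are RefSeq reference promoters of GRCm38.p6, written 5′ to 3′ in the direction of the gene, with every motif match in capitals; matches on the opposite strand read as the reverse complement, and overlapping matches run together. Cdk1 and Ccnb2 stand for mitotic genes, Mcm5 and Mcm6 for replication genes, Cdkn1b for a promoter that ranked higher in naive cells, and Cdkn2a for a gene whose promoter was called mainly in cultured cells.
Cdk1, chr10:69352913-69353162, minus strand: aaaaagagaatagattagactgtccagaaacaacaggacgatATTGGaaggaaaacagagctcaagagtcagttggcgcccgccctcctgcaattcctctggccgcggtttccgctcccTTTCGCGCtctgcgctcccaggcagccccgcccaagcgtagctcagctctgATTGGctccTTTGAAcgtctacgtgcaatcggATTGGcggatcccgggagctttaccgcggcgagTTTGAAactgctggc
Ccnb2, chr9:70421555-70421804, minus strand: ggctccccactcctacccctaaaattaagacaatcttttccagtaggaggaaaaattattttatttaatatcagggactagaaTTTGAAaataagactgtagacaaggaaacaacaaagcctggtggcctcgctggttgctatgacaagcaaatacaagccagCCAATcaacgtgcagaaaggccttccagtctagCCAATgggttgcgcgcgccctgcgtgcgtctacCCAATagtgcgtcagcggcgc
Mcm5, chr8:75109259-75109508, plus strand: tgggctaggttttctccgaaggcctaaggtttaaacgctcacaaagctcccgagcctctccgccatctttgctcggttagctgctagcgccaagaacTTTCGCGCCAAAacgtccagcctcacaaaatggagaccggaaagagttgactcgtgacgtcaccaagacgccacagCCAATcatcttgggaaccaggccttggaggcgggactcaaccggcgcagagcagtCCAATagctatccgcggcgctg
Mcm6, chr1:128359706-128359955, minus strand: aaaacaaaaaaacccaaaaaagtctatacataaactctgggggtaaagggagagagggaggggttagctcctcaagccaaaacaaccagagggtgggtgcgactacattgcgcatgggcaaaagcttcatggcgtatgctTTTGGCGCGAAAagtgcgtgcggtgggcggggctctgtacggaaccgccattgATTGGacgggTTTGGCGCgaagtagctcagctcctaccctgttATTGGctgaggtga
Cdkn1b, chr6:134920151-134920400, plus strand: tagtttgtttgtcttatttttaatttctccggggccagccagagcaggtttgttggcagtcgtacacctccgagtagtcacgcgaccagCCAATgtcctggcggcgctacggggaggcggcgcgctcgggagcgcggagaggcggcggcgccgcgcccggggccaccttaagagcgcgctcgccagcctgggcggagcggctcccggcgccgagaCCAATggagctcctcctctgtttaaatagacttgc
Cdkn2a, start at the far end of the gene, chr4:89294620-89294869, minus strand: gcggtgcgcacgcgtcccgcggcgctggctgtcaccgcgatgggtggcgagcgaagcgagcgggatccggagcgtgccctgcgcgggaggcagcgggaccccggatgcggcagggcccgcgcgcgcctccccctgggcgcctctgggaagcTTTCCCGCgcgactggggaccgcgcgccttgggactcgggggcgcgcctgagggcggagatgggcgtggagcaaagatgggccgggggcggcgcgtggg
Cdkn2a, inner start, chr4:89282193-89282442, minus strand: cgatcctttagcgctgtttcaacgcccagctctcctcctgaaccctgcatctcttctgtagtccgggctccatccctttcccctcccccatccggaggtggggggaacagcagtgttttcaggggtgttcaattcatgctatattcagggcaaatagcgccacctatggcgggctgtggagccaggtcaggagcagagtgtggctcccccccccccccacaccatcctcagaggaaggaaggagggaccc

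An E2F site stood in 7 of the 32 member promoters (21.9%) and in 2.37% of the 21045 promoters of all protein-coding genes. CCAAT boxes were in 20 of 32 (62.5%) against 35.6% of all promoters, and TTTGAA in 7 of 32 (21.9%) against 14.1%. The ETS form CCGGAAG was in 2 of 32 (6.25%) against 9.08% of all promoters. A match is a description of the letters in this window, not evidence of a bound factor. The printed Cdk1 promoter held an E2F site 131 to 124 bases before the start, 2 TTTGAA elements and 3 CCAAT boxes. The Ccnb2 promoter had 3 CCAAT boxes spaced over its last 87 bases and no E2F match. In Mcm5 and Mcm6, matches to E2F sites on the 2 strands overlapped each other, and Mcm6 had a further one 47 to 40 bases before the start. The far Cdkn2a promoter had a single kind of match, an E2F site, and the inner one had none of the 4 motifs.

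Most of these promoters carried a peak in every library, naive or cultured. A peak lay within 500 bp of the start in all 12 libraries for 23 of 32 member start sites (71.9%), against 41.2% of start sites of all protein-coding genes. No region at an annotated member start site met any of the presence calls between groups described below. The 7 genes without an annotated start are not covered by this. Among replication genes, the Mcm3 promoter stood at percentiles 94.6 to 97.6 of the naive lists and 93.2 to 99.0 of the cultured lists, where a percentile gives the place of a peak among all peaks of its own list by −log10 q-value, the strongest peaks having the highest. The Mcm5 promoter lay at 95.2 to 98.0 in naive and 88.5 to 98.7 in cultured lists, and the promoter of Pcna, the sliding clamp of DNA polymerases, at 92.9 to 94.6 and 85.7 to 96.5. These 3 promoters were thus among the stronger peaks of resting and of cultured cells alike, and the ranges overlapped. Mcm6 (86.2 to 91.7 in naive and 77.9 to 94.4 in cultured lists), Mcm7 (77.7 to 85.4 and 73.1 to 90.2) and Mcm2 (82.1 to 87.6 and 50.7 to 90.0) stood lower.

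The promoters of mitotic and proliferation genes differed among themselves. Cdk1 stood at 90.9 to 95.3 in naive and 79.3 to 95.7 in cultured lists, Top2a, a topoisomerase of dividing cells, at 93.3 to 94.6 and 73.5 to 94.6, and Ccnb1 at 84.4 to 93.3 and 82.0 to 96.2. Plk1, a mitotic kinase, stood lower at 60.8 to 76.6 and 38.4 to 88.0, and Mki67 is described below. The highest percentiles in naive lists belonged to the main E2f3 start, with 99.2 to 99.4 there and 87.4 to 98.9 in cultured lists, followed by Cdkn2d, the p19 inhibitor of Cdk4 and Cdk6, with 97.0 to 98.3. Cdkn2d stood at 89.9 to 97.0 in cultured lists. The main Cdk2 promoter was weaker, at 35.8 to 54.7 in naive and 40.8 to 78.7 in cultured lists.

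**Figure D1:**
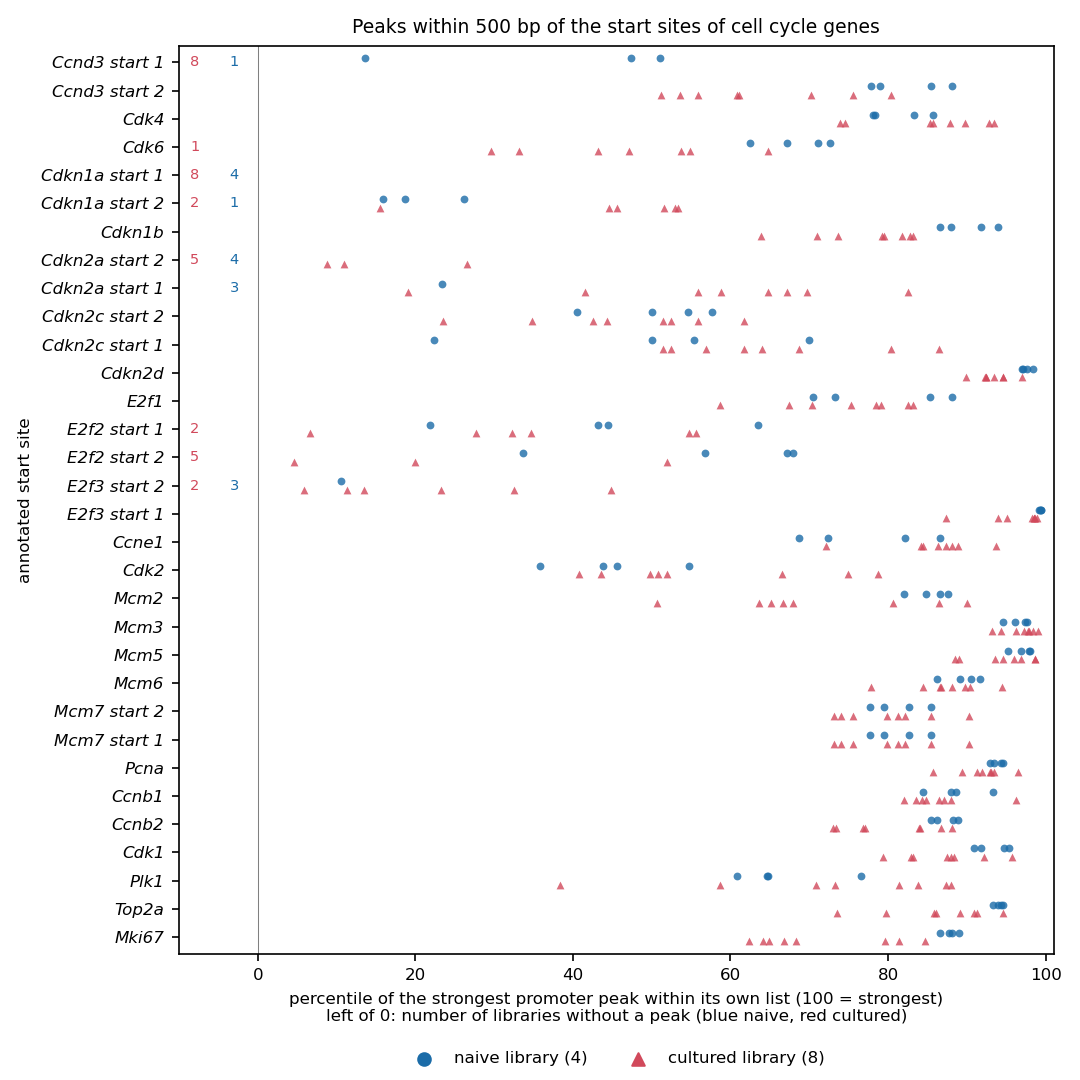
Percentile of the strongest peak within 500 bp of each member start site (vertical, start sites by gene; horizontal, percentile within the library's own list by −log10 q-value), 1 point per library, naive and cultured libraries in different colours. Mcm3, Mcm5, Pcna, E2f3 and Cdkn2d stay at the high end in every library, while the Cdkn2a start sites are nearly without naive points.

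To compare strength between lists of unequal length, each list was reduced to its 34746 strongest peaks, the length of the shortest, and ranks were counted from the strongest. Of 22 member start sites with a peak in all 12 reduced lists, none ranked higher in all 8 cultured than in all 4 naive libraries, against 1.00% of all start sites tested. Higher ranks in all 4 naive libraries were found for 2 of 22 (9.09%), close to the 10.5% of all start sites. They were Mki67, which encodes the proliferation marker Ki-67, and Cdkn1b. The Mki67 promoter ranked 6436, 6150, 4863 and 5850 in the naive libraries and between 7904 and 20390 in the cultured ones. The Cdkn1b promoter, printed above, ranked 6333 and 7519 in naive wild-type, 3364 and 2668 in naive knockout and 7945 to 16054 in cultured libraries. The groups did not overlap at either start site. With rank by fold enrichment the count was 1, and without naive wild-type replicate 2 it was 5.

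A few start sites departed from the common pattern. At the far Cdkn2a start, from which the Arf transcript begins, a peak was called in naive knockout replicate 1 (percentile 23.4), in none of the other 3 naive libraries, and in all 8 cultured libraries (19.1 to 82.6, median 61.8). At the inner start, used by the Ink4a transcript, no naive library and 3 cultured libraries had a peak, at percentiles 8.82, 26.6 and 10.9. The far region also spans the start of Gm12610. The Cdkn1a gene, which encodes the p53-induced inhibitor p21, had no peak in any library at the start 29090979 on chromosome 17 and a peak in 9 libraries at 29093769. Of the Ccnd3 starts, the one at 47505051 had a peak in 3 naive and in no cultured library, and the one at 47593467 had a peak in all 12.

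Many regions near these genes were shared by all libraries. Of the 275 member regions, 67 (24.4%) had a peak in all 12 libraries, against 13.2% of all 110642 regions and 15.0% of the 87961 regions near any protein-coding gene. At start sites of any gene the share was 44 of 62 (71.0%) against 60.6%, and away from start sites 23 of 213 (10.8%) against 7.23%. By group, 41.0% of the 39 regions near replication genes, 36.8% of the 19 near E and A cyclins and Cdk2 and 34.2% of the 38 near mitotic and proliferation genes were shared by all 12 libraries. Among the 46 regions near Rb1 and the E2F genes the share was 8.70%, and among the 93 near D cyclins and their kinases 17.2%. Near the CDK inhibitor genes it was 27.5% of 40. Mcm7 stood at one end, with the same 4 regions in every library. All 4 span start sites, and 3 of them lie at starts of the neighbours Zfp113, Cops6, Cnpy4 and Taf6. A region in a window can belong to such a neighbour, and 28 of the 142 flanking regions lay at another gene's start.

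Between resting and cultured cells, the regions present in one state and absent in the other lay inside gene bodies or in flanks, away from annotated start sites. A region was called open in cultured cells only where all 8 cultured libraries and no naive library had a peak. This held for 13 of 86 member regions with a peak in all cultured libraries (15.1%), against 27.6% of all regions. Away from start sites it was 13 of 41 (31.7%) against 40.7%. The reverse, open in naive cells only, held for 10 of 109 (9.17%), against 18.6% of all regions, and away from start sites for 10 of 59 (16.9%) against 25.1%. Of tested regions near any protein-coding gene, 24.6% were open in cultured cells only and 16.6% in naive cells only. Away from start sites these near-gene shares were 39.0% and 23.7%. The member shares were below each background, less so away from start sites. Whether the gap exceeds what 41 and 59 regions allow was not tested. The 13 regions lay near 9 genes (Ccnd2, Ccnd3, Cdk6, Cdkn2a, Cdkn2c, Rb1, E2f3, Mcm3, Ccnb1) and the 10 near 6 genes (Ccnd2, Ccnd3, Cdk6, Cdkn1b, Rb1, E2f2). Of the 23 regions, 12 lay near the D cyclins and Cdk6, in a group that held 93 of the 275 member regions. The E and A cyclins with Cdk2, with 19 member regions in all, had none, and no difference between the groups is read from this.

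**Figure D2:**
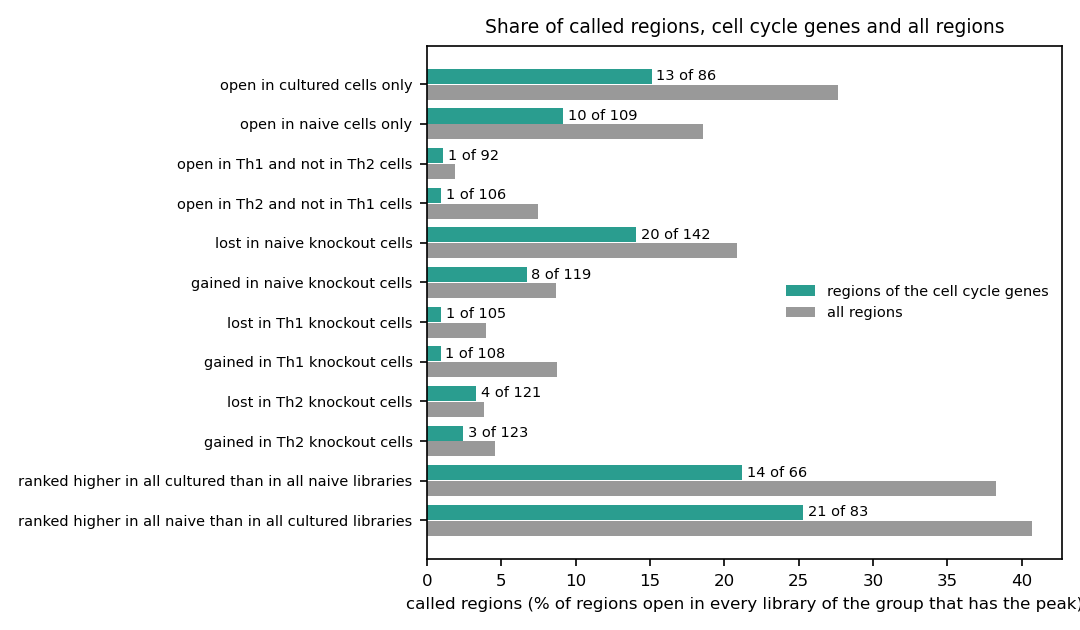
Share of tested regions that met each presence call (percent, horizontal) for regions near the 32 cell cycle genes and for all regions. The member share lies below that of all regions in both naive against cultured calls, 15.1% against 27.6% and 9.17% against 18.6%.

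**Figure D3:**
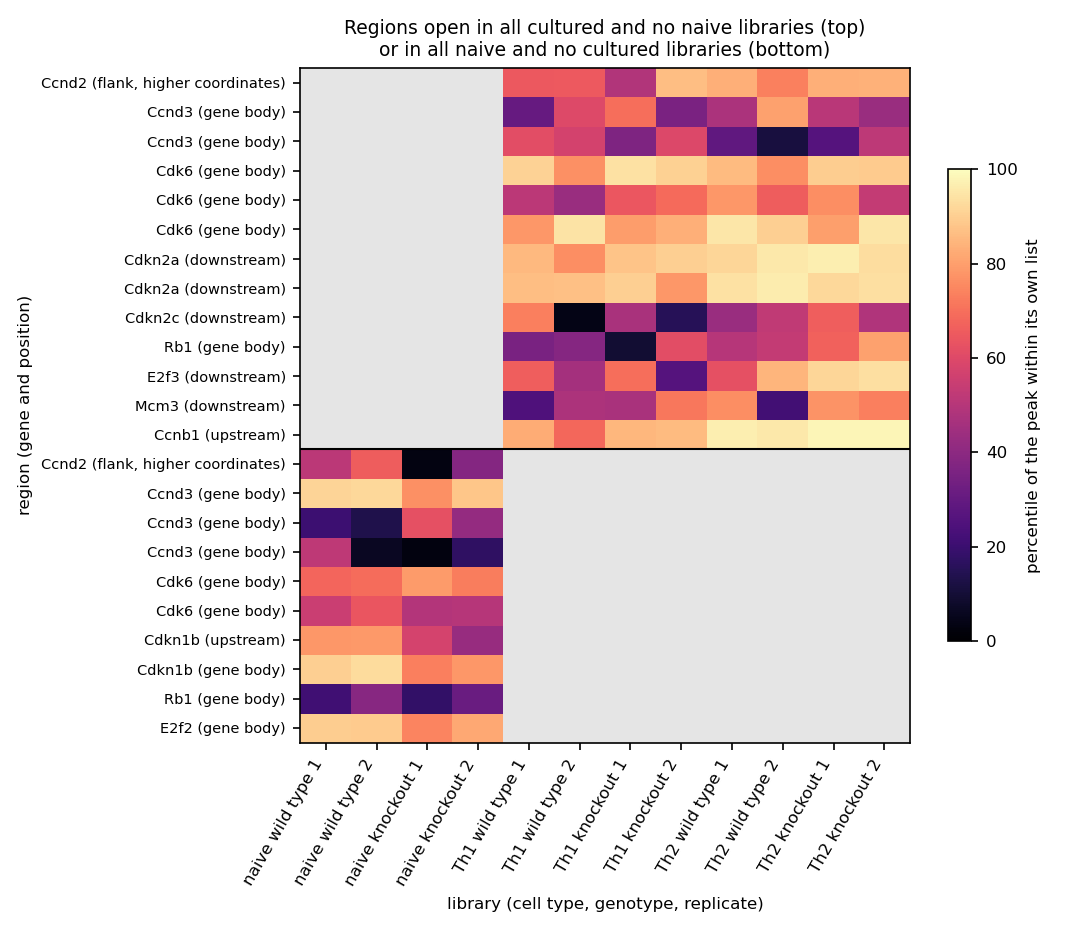
Member regions open in cultured cells only (13) or in naive cells only (10), 1 row per region and 1 column per library, coloured by the percentile of the peak within its own list and blank where no peak was called. The regions near Cdkn2a, 2 of the 3 near Cdk6 and the one near Ccnb1 are strong in every cultured library.

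Strength was compared in the reduced lists as well, a region without a peak counting as below the end of the list. Of 66 member regions with a peak in all cultured reduced lists, 14 (21.2%) ranked higher there than in every naive list, against 38.2% of all regions. Of 83 with a peak in all naive reduced lists, 21 (25.3%) ranked higher than in every cultured list, against 40.7%. Of the 14, 6 were in Cdk6 and 2 near Cdkn2a. The number of regions per gene gave a similar list of genes. It was higher in all cultured than in all naive libraries for 3 of 32 genes (Cdk6, Cdkn2a, Mcm3; background 6.29%) and lower for 2 (Ccnd3, E2f2; background 6.63%).

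**Figure D4:**
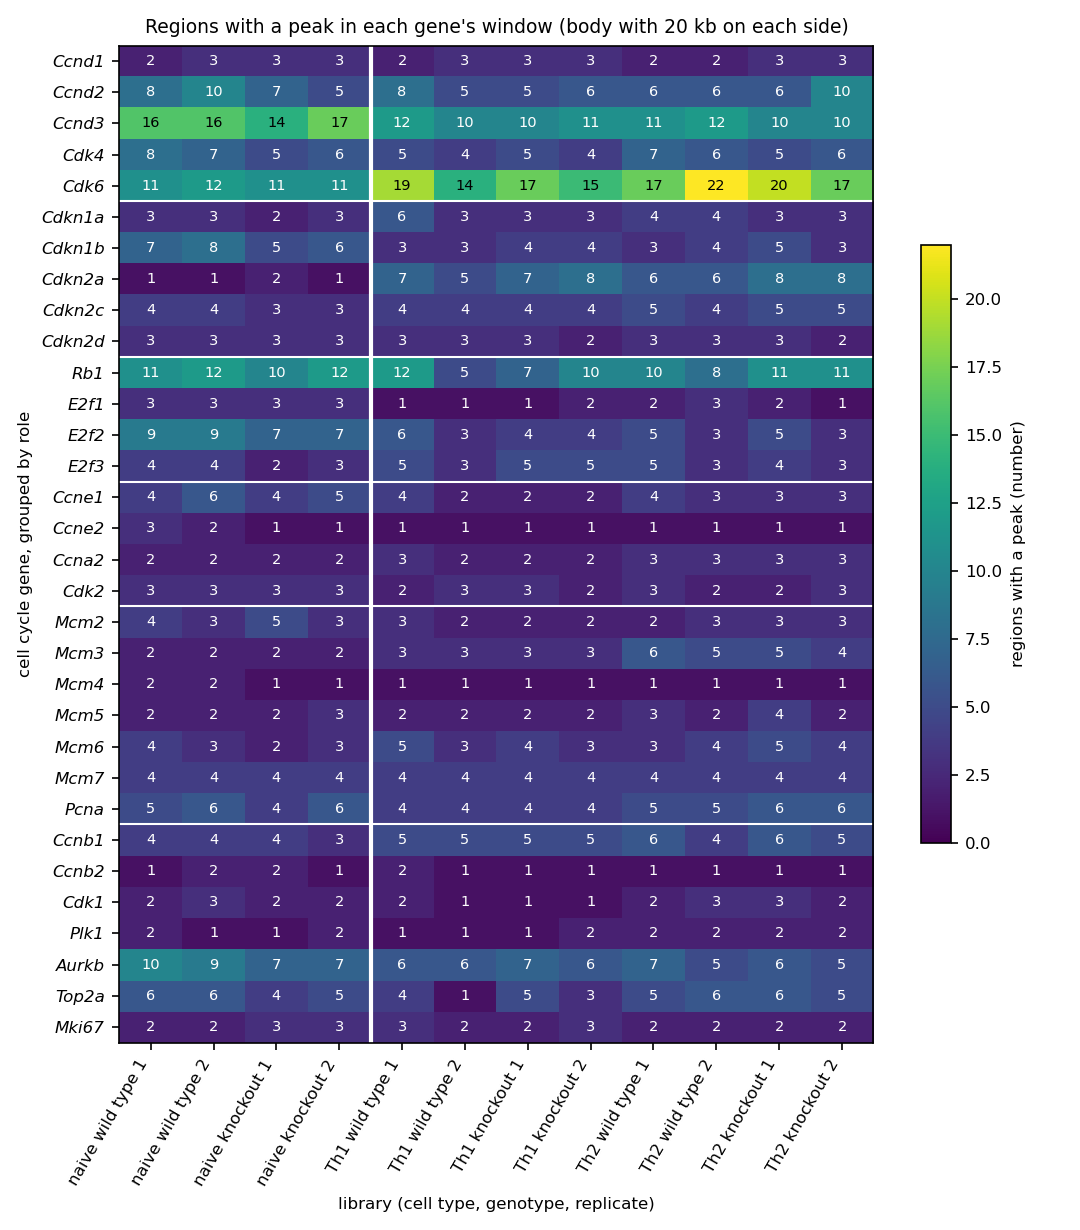
Number of regions with a peak in the window of each of the 32 genes (vertical, grouped by role) in each of the 12 libraries (horizontal). The number is written in each cell, and its colour follows the number. A line parts naive from cultured libraries. Cdk6 and Cdkn2a have more regions in every cultured library and Ccnd3 and E2f2 fewer, and Mcm7 has 4 in each.

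Cdk6, a kinase activated by D cyclins, spans 190.0 kb at chr5:3341004-3531008 on the plus strand and had 3 regions open in cultured cells only and 2 open in naive cells only. The naive wild-type libraries had 11 and 12 regions there, and the naive knockout ones 11 and 11. In Th1 cells it had 19 and 14 in wild-type and 17 and 15 in knockout libraries, and in Th2 cells 17 and 22 in wild-type and 20 and 17 in knockout libraries. The naive and cultured counts did not overlap, and peaks covered 5.50 to 6.64 kb in naive and 6.65 to 10.7 kb in cultured libraries.

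The strongest cultured sites of Cdk6 lay inside the gene. The region chr5:3494019-3495197, 153.6 kb from the annotated first base, had no peak in naive wild-type libraries and weak ones in naive knockout libraries (percentiles 37.3 and 47.2). In cultured lists it stood at 96.8 to 99.3, with ranks of 259 to 1667 among 34746 peaks. The region chr5:3355504-3356561, 15.0 kb from the first base, had a peak in every library, at percentiles 47.2, 46.4, 37.4 and 26.4 in naive and 92.5 to 99.2 in cultured lists. Its rank in the reduced lists was 25698 to 32252 in naive and 399 to 2612 in cultured libraries, so the groups were far apart. The regions chr5:3463096-3464095 (percentiles 76.5 to 93.9), chr5:3477708-3478334 (43.3 to 78.5) and chr5:3509484-3509937 (78.2 to 95.3) were open in cultured cells only. In the other direction, chr5:3383560-3384062 stood at 67.6, 69.5, 78.9 and 73.0 in the naive lists, and chr5:3420356-3421253 at 55.0, 64.1, 49.4 and 50.2. Neither had a peak in a cultured library. The Cdk6 start itself had a peak in 11 libraries, at 62.4 to 72.7 in naive and 29.5 to 64.8 in cultured lists.

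Ccnd3, which encodes cyclin D3 and lies at chr17:47505051-47599689 on the plus strand, had fewer regions in culture. The counts were 16 and 16 in naive wild-type, 14 and 17 in naive knockout, 12 and 10 in Th1 wild-type, 10 and 11 in Th1 knockout, 11 and 12 in Th2 wild-type and 10 and 10 in Th2 knockout libraries. The 2 ranges did not overlap. Inside the gene, chr17:47521447-47521968 was a strong naive site (91.0, 92.2, 76.7 and 88.1) with no peak in cultured cells. Weaker naive sites stood at chr17:47535843-47536318 (13.3 to 62.3) and chr17:47598081-47598583 (2.74 to 52.3). Cultured cells had peaks of their own at chr17:47515200-47516161 (30.8 to 80.4) and chr17:47595523-47596217 (11.7 to 61.5). Ccnd2, which encodes cyclin D2, had a site open in cultured cells only 5.06 kb from the gene at chr6:127157248-127157871 (49.0 to 86.5) and one open in naive cells only 13.4 kb away at chr6:127165630-127166077 (3.17 to 66.0). At Ccnd1 and Cdk4, no region met the naive against cultured presence calls. Cdk4 carried a promoter peak at 78.1 to 85.7 in naive and 73.9 to 93.5 in cultured lists.

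**Figure D5:**
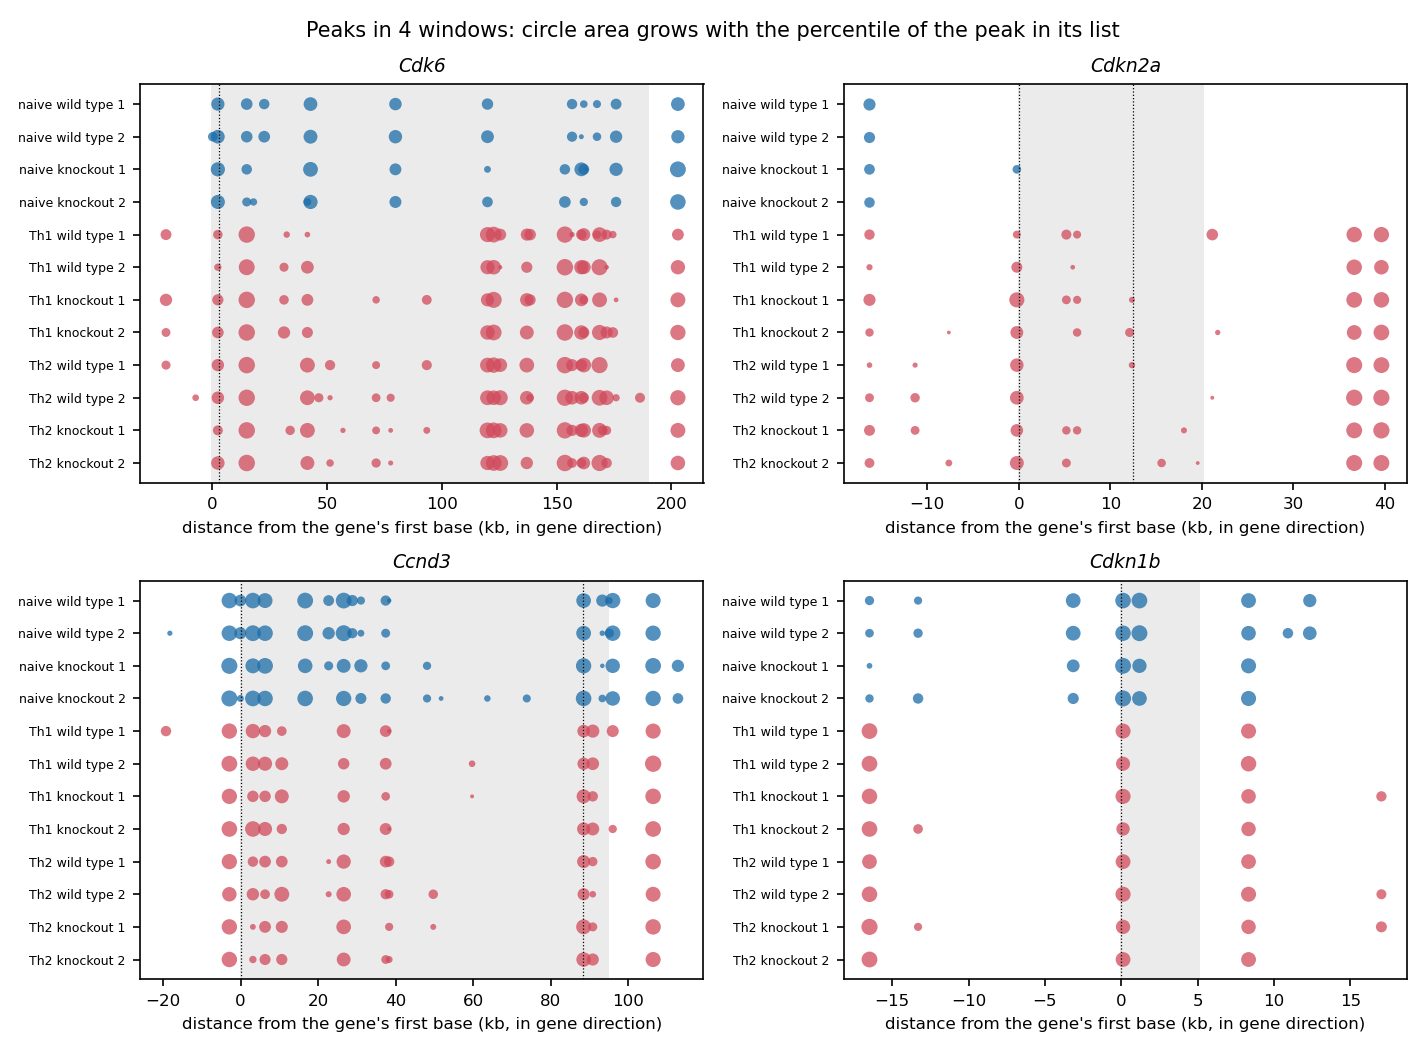
Peaks along Cdk6, Cdkn2a, Ccnd3 and Cdkn1b in each library (horizontal, distance from the gene's first base in kb; vertical, libraries). The grey band is the gene body, dotted lines are annotated starts, and the area of a circle grows with the percentile of the peak within its list; the Cdkn2a flank at 16.2 to 19.1 kb beyond the gene has circles in the 8 cultured libraries and none in the 4 naive ones.

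Among the inhibitors, Cdkn2a had more regions in culture, and Cdkn1b had strong sites in naive cells alone. Cdkn2a, at chr4:89274473-89294619 on the minus strand, encodes the Ink4a inhibitor of Cdk4 and Cdk6 and the p53 activator Arf. Its regions numbered 1 and 1 in naive wild-type, 2 and 1 in naive knockout, 7 and 5 in Th1 wild-type, 7 and 8 in Th1 knockout, 6 and 6 in Th2 wild-type and 8 and 8 in Th2 knockout libraries. The region in every naive library, chr4:89310386-89311445, spans the start of the neighbour Cdkn2b, 15.8 kb upstream. Peaks covered 0.755 to 1.17 kb in naive and 2.18 to 3.45 kb in cultured libraries.

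The strongest cultured sites of the Cdkn2a window lay beyond the end of the gene. The region chr4:89254708-89255333, 19.1 kb downstream, stood at percentiles 85.2 and 76.2 in Th1 wild-type, 87.8 and 89.9 in Th1 knockout, 91.6 and 95.6 in Th2 wild-type and 96.7 and 93.2 in Th2 knockout lists. The region chr4:89257700-89258280, 16.2 kb downstream, stood at 86.5 and 87.1, 89.9 and 78.5, 94.0 and 96.3, and 91.8 and 93.4 in the same order. Neither had a peak in a naive library, and neither overlaps an annotated protein-coding gene. In the reduced lists they ranked 1844 to 8257 and 1898 to 9547 in cultured libraries. With the narrower window of 5 kb both fall outside the gene's window.

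Cdkn1b, which encodes p27 and lies at chr6:134920401-134925525 on the plus strand, had 7 and 8 regions in wild-type naive cells, 5 and 6 in naive knockout and 3 to 5 in cultured libraries (median 3.5); the ranges met at 5. Inside the gene, chr6:134921356-134921832 stood at 89.9 and 92.7 in the wild-type naive lists and at 73.4 and 78.2 in the knockout ones. It had no peak in cultured libraries. The same held 2.89 kb upstream at chr6:134917003-134917509, with 78.4, 78.8, 57.6 and 42.9. The naive lists differ in length between genotypes, so no genotype difference is read from these percentiles. A site further upstream stood higher in cultured than in naive lists. At chr6:134903396-134904437, 16.0 kb from the start, a peak was called in all 12 libraries, at 27.9, 23.9, 7.67 and 22.1 in naive and 78.3 to 95.7 in cultured lists. Cdkn2c, which encodes the p18 inhibitor, had 1 site open in cultured cells only, 1.60 kb downstream (4.27 to 73.1), and Cdkn1a and Cdkn2d had none.

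Among the Rb and E2F genes, E2f2 had fewer regions in culture: 9 and 9 in naive wild-type, 7 and 7 in naive knockout, 6 and 3 in Th1 wild-type, 4 and 4 in Th1 knockout, 5 and 3 in Th2 wild-type and 5 and 3 in Th2 knockout libraries. Its naive site chr4:136189542-136190311, inside the gene, stood at 89.6, 89.3, 74.4 and 81.6 and had no peak in cultured libraries. E2f1 had 3 regions in each naive library and 1 to 3 in cultured ones. E2f3 had a site open in cultured cells only 2.80 kb downstream (26.2 to 93.6). Rb1, the pocket protein that binds E2F factors, had 1 site of each kind, chr14:73274675-73275192 in cultured cells (9.71 to 80.4) and chr14:73255328-73255889 in naive cells (18.1 to 39.0), both weak in several lists.

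The E and A cyclins with Cdk2, with 10 to 13 regions in each naive library, had no region in the naive against cultured presence calls. Of their regions, 3 ranked higher in all naive libraries, a call met by 25.3% of tested member regions and 40.7% of all tested regions. At chr10:128716010-128716651, 10.96 kb upstream of Cdk2 and inside the neighbour Pmel, peaks stood at 91.0, 91.0, 82.6 and 80.4 in naive lists. Only 3 cultured libraries had a peak there, at 48.1, 0.327 and 2.73. The others were 3.17 kb downstream of Ccne1, at chr7:38094266-38094817 with naive ranks of 2224 to 6501, and inside Ccne1, at chr7:38104113-38104641 with ranks of 7872 to 20189. In each of the 2, a single cultured library had a peak, outside its reduced list.

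Replication genes had 1 region open in cultured cells only and none open in naive cells only. That region, chr1:20791375-20791998, lay 10.97 kb downstream of Mcm3, a subunit of the replicative helicase, at percentiles 21.5 to 77.5. The Mcm3 window had 2 regions in each naive library, 3 in each Th1 library and 6, 5, 5 and 4 in the Th2 libraries. The window also reaches the neighbour Il17f. Near Pcna, chr2:132269162-132269695 ranked higher in cultured lists (2546 to 18367) than in the naive ones (21615 to 31654, with no peak in naive wild-type replicate 1), and it lies inside Cds2. Mcm2, Mcm4, Mcm5, Mcm6 and Mcm7 had no region in these presence calls.

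Among mitotic and proliferation genes, the one call was near Ccnb1, the gene of cyclin B1. The region chr13:100795173-100795880, 8.69 kb upstream of the gene, had no peak in naive libraries. It stood at 82.6 and 68.0 in Th1 wild-type, 85.0 and 85.9 in Th1 knockout, 96.7 and 95.5 in Th2 wild-type and 98.1 and 98.2 in Th2 knockout lists. In the reduced lists it ranked 6259 to 11103.5 in Th1 and 970 to 2331 in Th2 libraries. The share of all regions that part Th1 from Th2 libraries by rank was not computed, so no difference is read from this. Ccnb2, Cdk1, Plk1, Aurkb, Top2a and Mki67 had no region open in cultured cells only or in naive cells only. Beyond its promoter, Mki67 had a strong site 19.1 kb upstream in all libraries (89.0 to 99.6).

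Within wild-type libraries alone, 19 of 94 member regions (20.2%) were open in cultured cells only, against 30.5% of all regions, and 32 of 142 (22.5%) in naive cells only, against 37.4%. Within knockout libraries alone the counts were 15 of 96 (15.6%, background 37.6%) and 21 of 119 (17.6%, background 28.4%). In both genotypes the member shares were below the background in both directions. Without the naive knockout libraries, a choice made after seeing the data, 26 of 142 regions were open in naive cells only (18.3%, background 32.8%).

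Few member regions met the presence calls between Th1 and Th2 cells. A peak in all 4 Th1 and no Th2 library was found for 1 of 92 member regions (1.09%, background 1.86%), 18.9 kb upstream of E2f3 at chr13:30004984-30005483 (15.3 to 53.5). The reverse was found for 1 of 106 (0.943%, background 7.47%), 1.05 kb downstream of Ccne1 at chr7:38096618-38096936 (17.9 to 55.4). The latter count moved with the libraries used: without the 2 libraries with conflicting labels it was 10 of 122 (8.197%, background 11.3%). With 1 library left out it ran from 1 to 5, with 5 of 113 without Th2 wild-type replicate 1 (4.42%, background 8.77%) and 5 of 112 without Th2 knockout replicate 2 (4.46%, background 9.11%).

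Between genotypes, a region counts as lost if the wild-type libraries of a cell type both had a peak and its knockout libraries had none, and as gained if it was the other way round. With 2 libraries against 2, no exact permutation test can pass a usual threshold, so none was made. In naive cells 20 of 142 member regions were lost (14.1%), against 20.9% of all regions, and 8 of 119 gained (6.72%), against 8.67%. Away from start sites the shares were nearer to the background. There 20 of 90 were lost (22.2%, background 25.3%) and 8 of 69 gained (11.6%, background 10.8%). None of the lost or gained regions was within 500 bp of an annotated start site. For the 7 member genes without an annotated start, among them Mcm4 with a loss inside the gene, this could not be read. The lost regions lay near 15 genes, with 3 near Cdk6, 2 each near Ccnd2, Ccnd3 and Aurkb and 1 near each of the others, and the gained ones near 7 genes. In the same libraries 9 and 8 of 9 B cell genes had a peak in the knockout and 4 and 4 in the wild type, and the knockout lists were shorter; the part of either in these calls was not tested. With lists of equal length, 6 of 103 were lost (5.83%, background 12.5%) and 13 of 102 gained (12.75%, background 13.05%). Without naive wild-type replicate 1, 33 of 158 were lost (20.9%, background 28.1%), and without naive knockout replicate 1, 18 of 139 were gained (12.9%, background 13.3%).

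The naive losses were mostly weak sites. The strongest lay 7.01 kb downstream of Cdkn1b, at chr6:134932531-134932964 (62.2 and 66.5 in the wild type), and 2.13 kb from Aurkb, the gene of the mitotic kinase Aurora B, at chr11:69053797-69054242 (66.4 and 65.0). Inside gene bodies, losses in Cdk6 at chr5:3363336-3363963 (36.8 and 47.6), in Ccnd3 at chr17:47533717-47534009 (43.3 and 35.2) and in Rb1 at chr14:73243951-73244571 (51.5 and 39.6) were in the middle or lower part of the lists. Among the gains, chr6:88915478-88915812, 16.7 kb upstream of Mcm2, stood at 76.3 and 76.6, and chr7:135721516-135722199, 5.07 kb upstream of Mki67, at 33.5 and 39.2. Neither had a peak in any other library. The Cdk6 region 153.6 kb into the gene, strong in all cultured libraries, was also among the gains in naive knockout cells.

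In cultured cells few member regions differed by genotype. In Th1 cells 1 of 105 was lost (0.952%, background 3.96%), inside Cdk6 at chr5:3466114-3466798 (49.3 and 1.84 in the wild type), and 1 of 108 gained (0.926%, background 8.76%), 7.65 kb from Aurkb at chr11:69037309-69037977. In Th2 cells 4 of 121 were lost (3.31%, background 3.83%), near Ccnd3, Cdkn1a, E2f3 and Top2a, and 3 of 123 gained (2.44%, background 4.56%), near Ccnd1, Cdkn2a and E2f2. Away from start sites, Th1 cells had lost 1 of 58 (1.72%, background 5.19%) and gained 1 of 59 (1.69%, background 11.1%). Th2 cells there had lost 4 of 71 (5.63%, background 4.59%) and gained 3 of 73 (4.11%, background 5.42%). The Th2 loss in E2f3's flank, at chr13:29901702-29902014, stood at 48.4 and 41.6 in the wild type and had no peak in any other library, and the remaining 3 losses were at or below 13.2 in Th2 wild-type lists. The gain in the Cdkn2a gene body, at chr4:89289263-89289574, stood at 22.4 and 25.6, and also had a peak in 2 Th1 libraries. These counts depend on each library: with 1 of the 4 libraries left out, which loosens the rule, the Th1 losses ran from 3 to 21 (21 without Th1 wild-type replicate 2, whose list is the shortest) and the Th1 gains from 3 to 15 (15 without Th1 wild-type replicate 1). The Th2 losses then ran from 9 to 14 (14 without Th2 wild-type replicate 1) and the gains from 10 to 17 (17 without Th2 knockout replicate 2).

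A wider list of 68 other cell cycle genes, also chosen with earlier results of these data known, gave shares of the same order. Of their regions, 20 of 149 were open in cultured cells only (13.4%, against 27.6% of all regions) and 23 of 183 in naive cells only (12.6%, against 18.6%). Naive knockout cells had lost 35 of 244 (14.3%, against 20.9%) and gained 23 of 211 (10.9%, against 8.67%). In Th1 cells 6 of 178 were lost (3.37%, against 3.96%) and 9 of 192 gained (4.69%, against 8.76%), and in Th2 cells 8 of 225 (3.56%, against 3.83%) and 7 of 227 (3.08%, against 4.56%). Btg2, an anti-proliferative gene, had most naive sites, with 5 regions open in naive cells only and none in cultured cells only; it had 10 to 13 regions in naive and 6 to 7 in cultured libraries. Its relative Btg1 had 3 naive and 1 cultured region. Fbxw7, whose product marks cyclin E for destruction, had 4 cultured and 1 naive region. Cdc25a, a phosphatase that activates Cdk2, and Tfdp1, the partner of E2F factors, had 2 cultured regions each and no naive one, whereas Tfdp2 had 2 naive and no cultured one. Mdm2 had 2 cultured and 1 naive region, Pole and Rbl1 had 1 of each, and Ccng1 had 1 naive region. Region counts were higher in all cultured libraries for 5 of 68 genes (Orc1, E2f5, Tfdp1, Cdkn2b and Chek1), against 6.29% of all genes. They were lower for 3 of 68 (Cdc25b, Trp53 and Btg2), against 6.63%. The windows of Cdkn2b and Cdkn2a overlap. In naive knockout cells Cdc25b, Ccng2, Rbl1 and Rbl2 had 3 losses each and Tfdp2 3 gains, and Gins1 had 1 loss and 1 gain in naive and in Th1 cells.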

How the data were processed

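Peak lists of 12 ATAC-seq libraries of naive, Th1 and Th2 cells were used. Per the submitters' processing notes, reads were handled with BWA, Picard and MACS2 on GRCm38, with versions and options not stated in the labels. Each deposited list gives per peak a score (nearly always the −log10 q-value multiplied by 10 and cut to a whole number), a fold enrichment (a ratio over local background), a −log10 p-value and a −log10 q-value, as the authors' peak caller wrote them. These are the authors' values and were used only to place a peak within its own list, since places in lists of unequal length show no change. Peaks were called per library, and those on Y and mitochondrial DNA (13 to 26 per list) were left out.

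Peaks overlapping by at least 1 bp were merged, and a library had a region where 1 of its peaks overlapped it. Gene positions and start sites came from RefSeq tables of GRCm38.p6; 7 genes (Ccnd1, Ccnd2, Rb1, Ccne2, Ccna2, Mcm4, Aurkb) had no entry of start sites. Groups followed the labels. Calls required presence in every library of one group and absence from every library of the other, set beside the same share over all regions tested. No p-value was computed. Ranks used the 34746 strongest peaks of each list. All 32 genes are named; of the wider list, those with most called regions. Regions named are those in gene bodies and promoters and the strongest of the rest. The genes, lists and calls were chosen with earlier results of these data known. The calls were tested on simulated lists with planted regions. Alternatives changed list length, threshold, overlap, merging, window and libraries. Python 3.11.15, numpy 2.4.6, pandas 2.3.3 and matplotlib 3.10.9 were used.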

Additional observations from a re-analysis of the deposited data

Results flagged for a closer look

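A region 7.65 kb from Aurkb, at chr11:69037309-69037977, stood out because the genotypes differed in opposite directions in 2 cell types. In naive cells both wild-type libraries had a peak there (percentiles 30.4 and 26.0 of their lists) and neither knockout library did. In Th1 cells both knockout libraries had a peak (46.9 and 4.03) and neither wild-type library did. No Th2 library had a peak. The difference between the cell types was not tested, and the naive libraries are technical replicates of 1 sample per genotype.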

How the results depend on the processing

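Of 272 recomputed counts, 199 stayed within 1.5 times the reported count and 73 did not, and the causes were not tested. With lists of equal length, naive knockout cells had 6 losses and 13 gains, 5 regions were lost in Th1 and 0 gained in Th2 knockout cells, and 0 were open in Th2 and not Th1 cells. With −log10 q-values of at least 2, 5 of 94 were open in Th2 and not Th1 cells (5.32%, background 8.15%), and Th1 knockout cells had 3 losses and 2 gains. Where peaks had to cover 0.5 of a region, 8 were open in cultured cells only and 0 in Th1 and not Th2. Under that rule 3 were gained in Th1 knockout cells, and 1 gene had more regions in culture. Open in Th2 and not Th1 were 6 of 76 (7.89%, background 12.4%). Merging peaks up to 100 bp apart gave 2 gains in Th1. With 5 kb windows, 8 were open in cultured cells only, 0 in Th1 and not Th2, 4 gained in naive, 0 gained in Th1 and 2 lost in Th2 knockout cells, and 8 ranked higher in culture. With 50 kb windows, which hold more regions, the counts were 26 open in cultured and 22 in naive cells only, 2 in Th1 and not Th2, 3 in Th2 and not Th1, 35 lost in naive, 3 lost and 7 gained in Th1, 8 gained in Th2, 6 genes with fewer regions in culture, and 28 and 39 regions ranked higher in cultured and in naive cells. By fold enrichment, 1 promoter ranked higher in naive cells. Counts between Th1 and Th2 cells and of ranked regions were added after seeing the data, as were the alternatives without the naive knockout libraries and within 1 genotype. Without the naive knockout libraries, 26 were open in naive cells only, 40 ranked higher in naive cells, and 6 genes had fewer regions in culture. Wild-type libraries alone gave 32 open in naive cells only, 4 in Th1 and not Th2 and 14 in Th2 and not Th1, and knockout libraries alone 21, 5 and 11. Without the libraries of conflicting labels, the last 2 counts were 2 and 10. With 1 library left out, which loosens each rule, counts ran from 13 to 14 (cultured only), 10 to 13 (naive only), 1 to 3 (Th1 and not Th2), 1 to 5 (Th2 and not Th1), 25 to 33 and 9 to 18 (naive lost and gained), 3 to 21 and 3 to 15 (Th1), 9 to 14 and 10 to 17 (Th2), and 2 to 5 (promoters ranked higher in naive cells). No paired analysis was possible because the counts come from no test, and by construction a region lost or gained in each same-numbered pair is the one called without pairing. Depth is unknown, so a region absent from a short list may lie under its threshold.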

Other observations

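A region of Cdk6 that was strong in culture, chr5:3494019-3495197, had peaks at percentiles 37.3 and 47.2 in the naive knockout lists and none in the naive wild-type lists. The naive libraries of a genotype are technical replicates of the same sample, the lists differ in length, and the cause was not tested. Upstream of Mcm3, the region chr1:20824882-20825516 stood at 97.5, 98.8, 92.3 and 87.8 in naive lists and at 37.4 to 91.6 in cultured lists, so the ranges overlapped. Near Ccnb1, the region chr13:100805718-100806301, inside the neighbour Slc30a5, stood at 92.1, 93.1, 87.7 and 85.7 in naive lists, and 6 of the 8 cultured libraries had a peak there, at 15.0 to 64.4.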
